A study of Homo sapiens with 12 samples.

Results

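The peaks described here are all those that lay on chromosome 4 or chromosome 18 in 9 lists of sites occupied by dCas9, the form of Cas9 that is guided to DNA but has lost its cutting activity. They were taken by chromosome name alone, with no filter on score or width, and numbered 2353 of 58042 peaks, with 1663 on chromosome 4 and 690 on chromosome 18. Sites had been mapped by chromatin immunoprecipitation sequencing (ChIP-seq) with an HA antibody in HEK 293T, an established human embryonic kidney cell line, collected 3 days after transfection with Fugene6. Each library had dCas9 and 1 of 6 single guide RNAs (sgRNAs), with 2 replicates for sgRNA1 to sgRNA3 and 1 library for each of sgRNA4 to sgRNA6, so values of these last 3 guides carry no replicate error. The library with dCas9 alone and the amplicon samples from cells with wild-type Cas9 were not analysed here, so no value can be set beside a background without a guide.

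A guide RNA directs Cas9 to DNA that matches it next to a short protospacer adjacent motif, and a short match at the end of the guide nearest that motif can be enough for binding without cutting. Binding of this kind is known to occur more readily in open chromatin, which lies mostly around genes. Chromosomes 4 and 18 are among the human chromosomes with the fewest genes for their length, and genes on chromosome 4 crowd near the tip of its short arm. No genome or gene annotation of build hg19, on which the lists are placed, was used, which is why each peak is named by its position, with no sequence or gene. Whether the regions named below hold genes, open chromatin or matches to a guide was not tested.

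Longer lists mostly had more members. sgRNA6 had 1365 (956 on chromosome 4 and 409 on chromosome 18), sgRNA4 had 525 (387 and 138) and sgRNA5 had 343 (245 and 98). In replicate 1 and replicate 2, sgRNA1 had 8 and 46 members, sgRNA2 had 3 and 33, and sgRNA3 had 5 and 25. The members of the sgRNA1, sgRNA2 and sgRNA3 libraries are thus few, and most come from replicate 2. The lists give no read depth, and the part of depth in these numbers was not tested.

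In the longer lists, chromosomes 4 and 18 together held fewer peaks than their length would give. Together they make up 8.86% of the length covered by the lists, with the end of a chromosome set at its last peak in the 9 lists, and they held 4.06% of the sgRNA6 list (exact binomial 95% interval 3.85 to 4.28), 3.84% of the sgRNA4 list (3.53 to 4.18) and 4.11% of the sgRNA5 list (3.69 to 4.56). In the other lists the share was 3.60% (2.65 to 4.77), 5.79% (4.02 to 8.03) and 6.54% (4.28 to 9.51) for replicate 2 of sgRNA1, sgRNA2 and sgRNA3. In replicate 1 it was 8.33% (3.67 to 15.8), 5.17% (1.08 to 14.4) and 12.2% (4.08 to 26.2), and these intervals, like that of sgRNA3 replicate 2, include the share of length. By guide the share averaged 9.37 ± 3.996% with sgRNA3, 5.97 ± 3.35% with sgRNA1 and 5.48 ± 0.436% with sgRNA2 (SD, n = 2 libraries each). No difference among these guides was detected (exact permutation test over libraries, p = 0.467; the smallest p that 15 arrangements allow is 0.0667).

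Chromosome 4 was sparser than the other chromosomes with each guide. With the replicates of a guide pooled, its peaks per Mb were 0.395 times those of the other chromosomes for sgRNA1, 0.538 for sgRNA2, 0.627 for sgRNA3, 0.427 for sgRNA4, 0.444 for sgRNA5 and 0.430 for sgRNA6. The mean log2 ratio was -1.09 ± 0.252 (SD, n = 6 guides; exact two-sided sign-flip permutation test over guides, p = 0.0312, the smallest that 6 guides allow). Adjusted over the 9 results tested in this way, p was 0.141, so the difference did not pass the correction although 6 of 6 guides showed it. A result could pass only if most of the 9 had the smallest possible p together. Not passing therefore does not show that there was no difference. Guides share many of their regions, and all lists come from 1 cell line, so the 6 values are not fully independent.

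On chromosome 18 the guides differed more. The ratio was 0.373 for sgRNA4, 0.435 for sgRNA5, 0.450 for sgRNA6 and 0.484 for sgRNA1, but 0.840 for sgRNA2 and 1.17 for sgRNA3 (mean log2 -0.81 ± 0.648, SD, n = 6; exact permutation test, p = 0.0625, adjusted p = 0.141). The values of sgRNA2 and sgRNA3 rest on 14 and 13 peaks of chromosome 18, and in the replicate 2 lists alone they were 0.727 and 0.994. Replicate 1 stood above the other chromosomes for all 3 guides, with ratios of 1.61, 1.94 and 2.96 from 4, 3 and 3 peaks. Without replicate 2, the mean log2 ratio was -0.09 (exact permutation test, p = 0.844). Chromosome 18 exceeded chromosome 4 in density with 4 of 6 guides, a difference that was not detected beyond the spread between guides (mean log2 ratio 0.28 ± 0.421, SD, n = 6; exact permutation test, p = 0.188, adjusted p = 0.281).

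**Figure D1:**
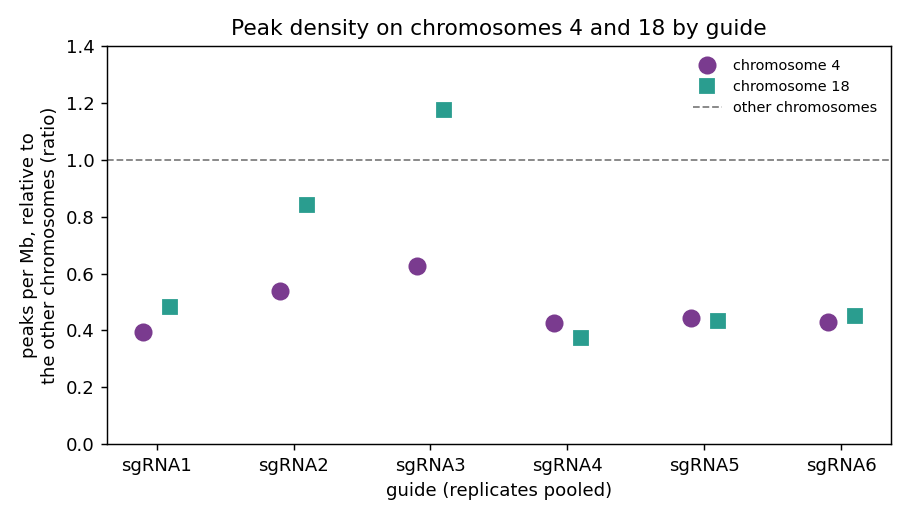
Peaks per Mb on chromosome 4 (circles) and chromosome 18 (squares) divided by peaks per Mb on the other chromosomes (dashed line at 1), for each guide with its replicates pooled. Chromosome 4 lies below 1 with all 6 guides, from 0.395 to 0.627, and chromosome 18 lies above 1 with sgRNA3 alone (1.17).

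In the 3 long lists the 2 chromosomes stood at the bottom of the 23 chromosomes other than Y. With sgRNA4, chromosome 18 had 1.77 peaks per Mb and chromosome 4 had 2.03, the sparsest and second sparsest, with chromosome 13 next at 2.05. With sgRNA5 they held the same places, at 1.26 and 1.28 peaks per Mb, and chromosome 13 had 1.76. With sgRNA6, chromosome 13 was sparser still at 4.55 peaks per Mb, followed by chromosome 4 at 5.00 and chromosome 18 at 5.25. Over all 9 lists, density relative to the chromosomes other than 4 and 18 was 0.433 on chromosome 4, 0.440 on chromosome 18 and 0.451 on chromosome 13. By these lengths, the low density was thus not particular to chromosomes 4 and 18. Chromosome 13 is acrocentric, and the unsequenced bases of its short arm were kept in its length. Its density may therefore be understated against theirs, and the order of the 3 chromosomes without these bases was not tested. In the same lists the densest chromosome, 19, had 17.9, 9.21 and 38.5 peaks per Mb for sgRNA4, sgRNA5 and sgRNA6.

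The sparse density was not spread evenly along the chromosomes. In bins of 1 Mb on both chromosomes, sgRNA6 had a median of 3 peaks and a highest count of 64, sgRNA4 a median of 1 and a highest count of 32, and sgRNA5 a median of 1 and a highest count of 10. The share of the 270 bins with no peak was 17.8% for sgRNA6, 39.6% for sgRNA4 and 47.8% for sgRNA5, against 14.5%, 26.3% and 31.6% of the bins of the other chromosomes. The fullest 10% of bins held 44.7%, 44.4% and 46.1% of the sgRNA6, sgRNA4 and sgRNA5 members, and the same measure on the other chromosomes was 44.6%, 48.2% and 42.4%. The concentration of members was thus near that of other chromosomes pooled, whose bins include both dense and sparse chromosomes. It was above that of chromosome 13 alone, a chromosome of similar density over all lists by the lengths used here. There the fullest 10% of bins held 33.8%, 37.7% and 38.9% of the sgRNA6, sgRNA4 and sgRNA5 peaks. On chromosome 19, the densest in these lists, the shares were lower still. Shares of empty bins and of fullest bins also depend on the mean count per bin. For sgRNA6, sgRNA4 and sgRNA5 that mean was 5.06, 1.94 and 1.27 on chromosomes 4 and 18. It was 11.6, 4.73 and 2.88 on the other chromosomes and 37.9, 17.6 and 9.07 on chromosome 19. The part of the mean in these differences was not tested. Further single chromosomes were not compared, and the differences themselves were not tested. Over all 9 lists, 23 of 192 bins of chromosome 4 and 14 of 78 bins of chromosome 18 held no peak.

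**Figure D2:**
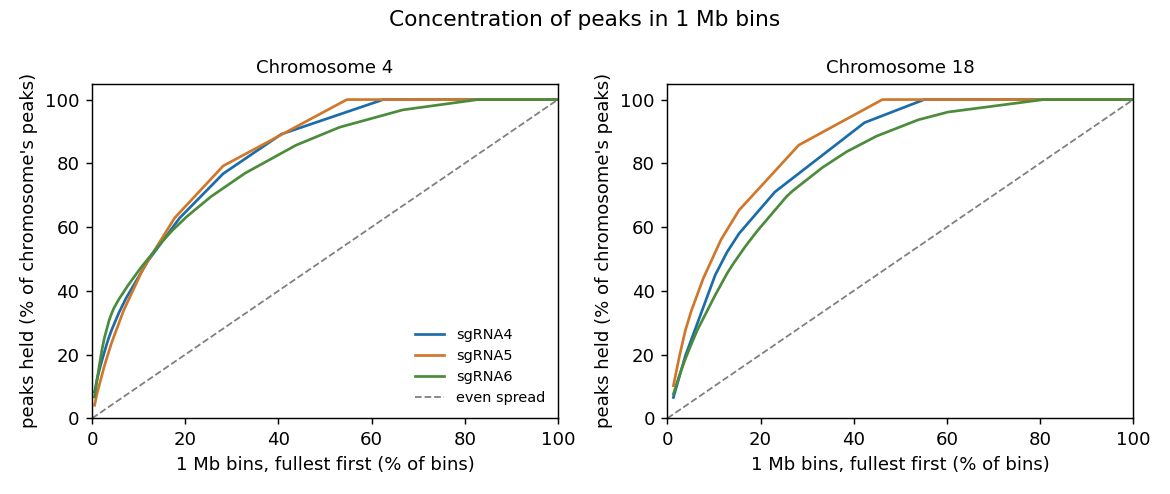
Share of a chromosome's peaks (y axis, %) held by its 1 Mb bins taken from the fullest down (x axis, % of bins), for sgRNA4, sgRNA5 and sgRNA6, with a dashed line for an even spread. Bins sorted by count lie above the even spread even for peaks placed at random. The fullest 10% of bins hold 43.7 to 46.1% of peaks on chromosome 4 and 38.6 to 52.0% on chromosome 18.

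The 2 longest stretches without a peak in any list lay on chromosome 4 at 62238956 to 66535955 (4.30 Mb) and at 27029456 to 30719419 (3.69 Mb), and on chromosome 18 at 14451008 to 18680618 (4.23 Mb) and at 48724892 to 51750961 (3.03 Mb). The first of those on chromosome 18 spans the centromere, where the reference holds unsequenced bases and no read can be placed. By contrast, the median gap between neighbouring regions, after overlapping peaks of all lists were merged, was 38.2 kb on both chromosomes. Unsequenced bases were not removed from the lengths used here.

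On chromosome 4 the peaks crowded at the end of the short arm and not at that of the long arm. Within 5 Mb of the short-arm end there were 190 sgRNA6, 72 sgRNA4 and 30 sgRNA5 peaks, or 38, 14.4 and 6 per Mb. Within 5 Mb of the long-arm end there were 25, 4 and 2, or 5, 0.8 and 0.4 per Mb, and the interior held 4.09, 1.72 and 1.18 per Mb. The short-arm end thus held 9.28, 8.38 and 5.10 times the density of the chromosome's own interior. Among 36 ends of chromosomes, acrocentric ones and Y left out, it took place 2, 3 and 2 from the highest by this ratio, whose median over all ends was 2.59, 1.97 and 1.58. The long-arm end took place 30, 35 and 34.

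The crowded stretch reached about 10 Mb inwards and then stopped. With sgRNA6, density by distance from the short-arm end was 45.5 peaks per Mb in the first 2 Mb, 33 at 2 to 5 Mb and 27.2 at 5 to 10 Mb, but 2.5 at 10 to 20 Mb and 3.26 beyond. With sgRNA4 the same distances gave 21, 10, 7.2, 0.8 and 1.51, and with sgRNA5 6, 6, 5.4, 0.7 and 0.953. The drop past 10 Mb was therefore seen in all 3 long lists. The first 10 Mb, a stretch chosen after these values were seen, make up 5.23% of the chromosome and held 34.1% of its sgRNA6 peaks (326 of 956), 27.9% of its sgRNA4 peaks (108 of 387) and 23.3% of its sgRNA5 peaks (57 of 245).

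The fullest bin of chromosome 4 in each long list was that at 1 to 2 Mb, with 64 sgRNA6, 32 sgRNA4 and 10 sgRNA5 peaks. It was followed, by the mean share over these lists, by the bins at 7 to 8 Mb (51, 9 and 9 peaks), 2 to 3 Mb (36, 15 and 7), 3 to 4 Mb (46, 10 and 7) and 8 to 9 Mb (43, 12 and 6). All 5 lay in the first 10 Mb. The bin at 1 to 2 Mb also held 1 peak in each replicate of sgRNA1 and of sgRNA3, and no peak of sgRNA2.

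With the replicated guides the same end held few peaks in number. Within 5 Mb of either end of chromosome 4 lay 4 of 36 sgRNA1 peaks, 1 of 22 sgRNA2 peaks and 2 of 17 sgRNA3 peaks, of which 3, 1 and 2 were at the short-arm end. Over all 6 guides, the percent of chromosome 4 peaks near an end exceeded the percent of length there by a mean of 8.53 ± 6.44 points (SD, n = 6; exact permutation test, p = 0.0625, adjusted p = 0.141), with 5 guides above and sgRNA2 below. The excess ranged from -0.689 points for sgRNA2 to 17.3 points for sgRNA6.

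On chromosome 18 no such crowding of the ends was detected. Near its ends, which make up 12.8% of its length, lay 60 of 409 peaks with sgRNA6 (14.7%, exact binomial 95% interval 11.4 to 18.5), 23 of 138 with sgRNA4 (16.7%, 10.9 to 24.0) and 7 of 98 with sgRNA5 (7.14%, 2.92 to 14.2). Of the replicated guides, sgRNA1 had 2 of 18 there (11.1%, 1.38 to 34.7) and sgRNA3 had 3 of 13 (23.1%, 5.04 to 53.8). With sgRNA2 it was 0 of 14, which allows a share of up to 21.4%. The mean difference from the share of length was -0.716 ± 7.999 points (SD, n = 6; exact permutation test, p = 0.812, adjusted p = 0.914). The last 2 Mb of the long arm were the exception with sgRNA6, at 14.5 peaks per Mb, and had 4 per Mb with sgRNA4 and 1 with sgRNA5. The sign depended on how an end was defined, the mean difference being 4.95 points with ends of 2 Mb (exact permutation test, p = 0.125, adjusted p = 0.2) and -9.33 points with ends of 10 Mb (exact permutation test, p = 0.0312, adjusted p = 0.0938).

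Relative to the share of length, the ends held fewer members than the ends of other chromosomes with 5 of 6 guides, at 0.878 (sgRNA1), 0.206 (sgRNA2), 1.23 (sgRNA3), 0.867 (sgRNA4), 0.803 (sgRNA5) and 0.929 times. This difference was not detected beyond the spread between guides (mean log2 -0.47 ± 0.915, SD, n = 6; exact permutation test, p = 0.188, adjusted p = 0.281). The sgRNA2 value rests on 1 peak. The direction turned with ends of 2 Mb (mean log2 0.21 over the 5 guides that could be compared) and without replicate 2 (0.48, 5 guides).

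**Figure D3:**
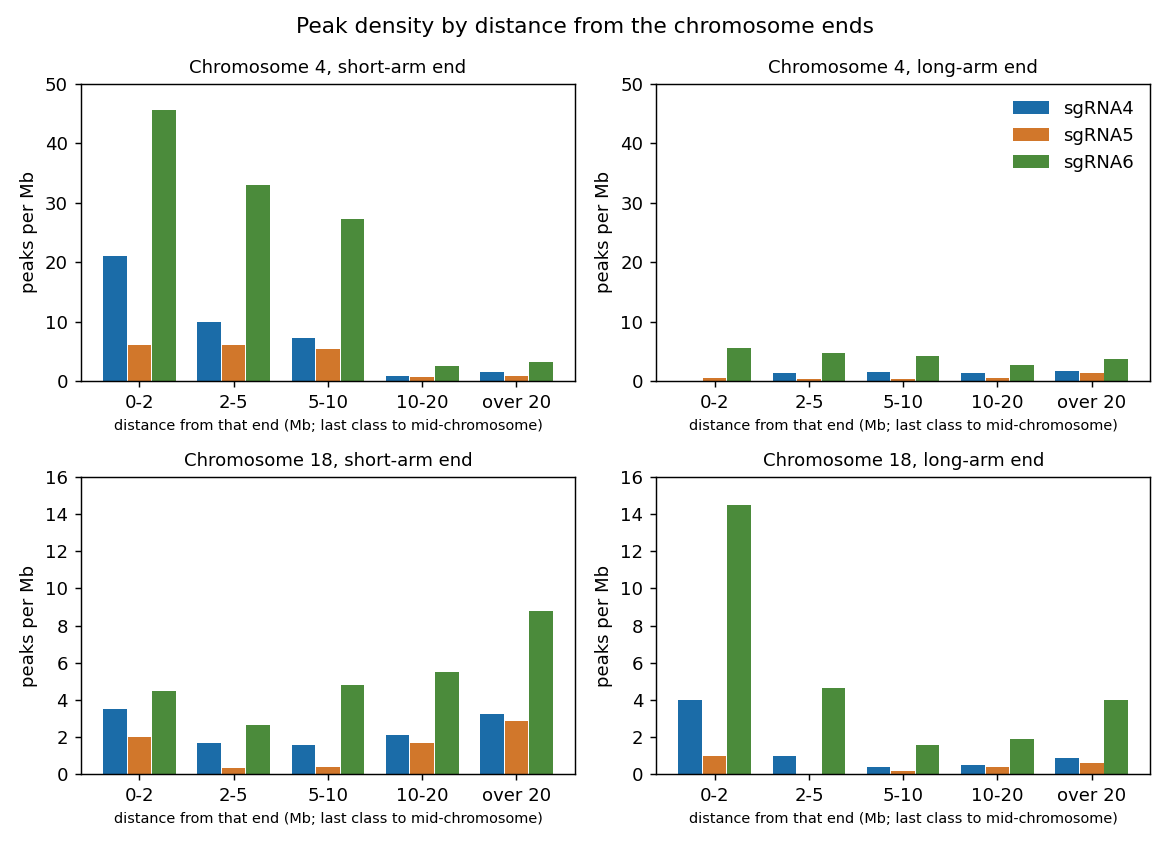
Peaks per Mb (y axis) by distance from the short-arm end (left) and long-arm end (right) of chromosome 4 (top) and chromosome 18 (bottom) for sgRNA4, sgRNA5 and sgRNA6, the last class running to mid-chromosome. On chromosome 4 the density with sgRNA6 is 27.2 or more over the first 10 Mb of the short arm and 2.5 at 10 to 20 Mb, whereas the long-arm end stays at 5.5 or below.

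By mean share over the 3 long lists, the densest parts of chromosome 18 lay inside the long arm. Its fullest bins by mean share were those at 19 to 20 Mb, with 19 sgRNA6, 9 sgRNA4 and 10 sgRNA5 peaks, at 33 to 34 Mb (18, 9 and 9), at 21 to 22 Mb (15, 7 and 8), at 29 to 30 Mb (14, 9 and 6) and at 34 to 35 Mb (31, 7 and 3). The bin at 19 to 20 Mb also held 4 of the 10 chromosome 18 peaks of sgRNA3 replicate 2. At 10 to 20 Mb from the long-arm end, density was 1.9 peaks per Mb for sgRNA6, 0.5 for sgRNA4 and 0.4 for sgRNA5.

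The regions found with the most guides were concentrated in the same part of chromosome 18. After overlapping peaks of all lists were merged, chromosome 18 had 535 regions, of which 450 were seen with a single guide. A further 48 were seen with 2, 21 with 3, 10 with 4, 5 with 5 and 1 with all 6. The region with all 6 lay at 32620701 to 32622320. Its peak ranked 102 of 1278 in sgRNA1 replicate 2 (score 106), 121 of 570 in sgRNA2 replicate 2 (71.9), 61 of 382 in sgRNA3 replicate 2 (84.1), 1281 of 13660 with sgRNA4 (172), 120 of 8346 with sgRNA5 (212) and 4846 of 33611 with sgRNA6 (211). The score is the authors' value for the peak, is never below 50, and compares peaks within 1 list only. In the 6 lists that held it the peak stood between percentiles 78.9 and 98.6 by rank, where 100 is the highest score, and no replicate 1 list held it.

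The other chromosome 18 regions among the 10 most shared of both chromosomes lay close by. The region at 34407868 to 34409907 was found with 5 guides and was the highest chromosome 18 peak of sgRNA2 replicate 2 (score 118, rank 13 of 570). With sgRNA4 it ranked 187 of 13660 (367). The region at 33708213 to 33710389, also found with all guides but sgRNA3, was the highest chromosome 18 peak of sgRNA1 replicate 2 (108, rank 97 of 1278). That at 31801730 to 31804026 was found with all guides but sgRNA3, and that at 32820390 to 32821565 with all but sgRNA2. The region at 32820390 ranked 46 of 8346 with sgRNA5 (score 291).

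A 7 Mb stretch of chromosome 18 at 28 to 35 Mb, chosen after these values were seen, holds all 5 of these regions. It makes up 8.98% of the chromosome and contained 117 of its 535 regions, 11 of its 16 regions found with 4 or more guides and 6 of its 6 found with 5 or more. It held 94 of the 409 chromosome 18 peaks of sgRNA6, 41 of 138 of sgRNA4 and 32 of 98 of sgRNA5. In replicate 2 it held 10 of 14 for sgRNA1, 8 of 11 for sgRNA2 and 4 of 10 for sgRNA3, and in replicate 1 none of their 4, 3 and 3. Peaks there were also wider, with medians of 747 bp in the stretch against 608 bp elsewhere on the chromosome for sgRNA6, 1092 against 601 bp for sgRNA4 and 1093.5 against 537 bp for sgRNA5. Every chromosome 18 peak of 2000 bp or more, 2 of sgRNA6, 6 of sgRNA4, 2 of sgRNA5 and 1 of sgRNA1 replicate 2, lay in it. Because the stretch was chosen for these values, no test was made. A wider peak can be overlapped more readily, and the part of width in the sharing was not tested.

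**Figure D4:**
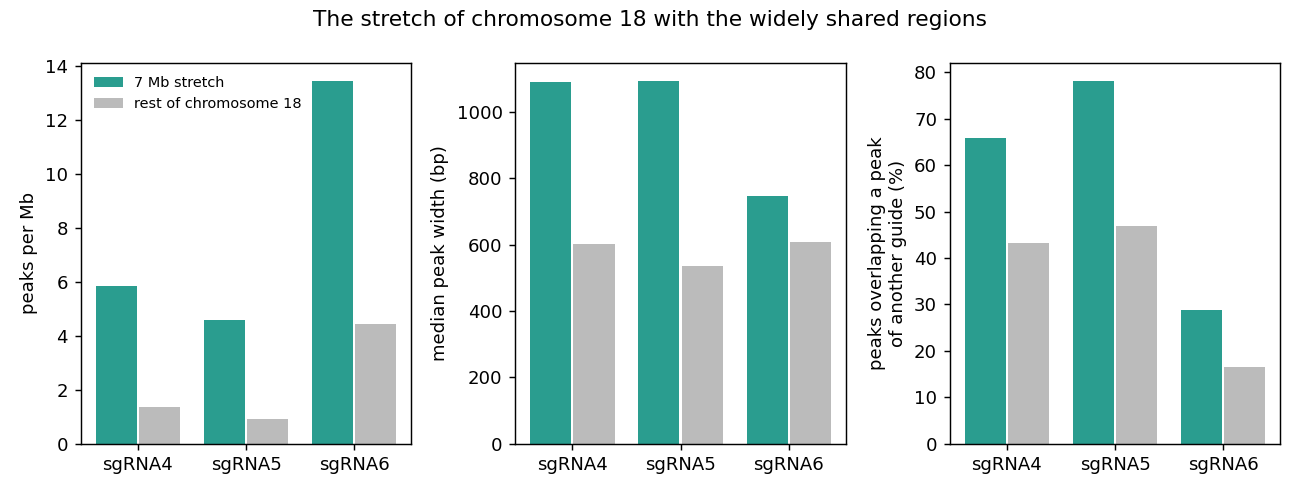
Peaks per Mb, median peak width (bp) and percent of peaks that overlap a peak of another guide, in the 7 Mb stretch of chromosome 18 (left bars) and in the rest of that chromosome (right bars), for sgRNA4, sgRNA5 and sgRNA6. All 3 measures are higher in the stretch in each list, with median widths of 1092, 1093.5 and 747 bp against 601, 537 and 608 bp.

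On chromosome 4 the regions found with 4 or more guides lay mostly outside the crowded short-arm end. Of 1226 merged regions, 947 belonged to a single guide. The rest comprised 188 held by 2 guides, 68 by 3, 16 by 4 and 7 by 5. The first 10 Mb held 417 of the 1226, 62 of the 279 found with more than 1 guide and 1 of the 23 found with 4 or more. Among the 10 most shared regions of both chromosomes were those at 128885539 to 128887475, 18022936 to 18024355, 62067410 to 62068927, 153700432 to 153701813 and 42399555 to 42400861, each found with 5 guides. The first ranked 72 of 1278 in sgRNA1 replicate 2 (score 116), and the second ranked 24 of 8346 with sgRNA5 (379) and 76 of 382 in sgRNA3 replicate 2 (77.2).

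Taken peak by peak, members overlapped peaks of other guides about as often as peaks on the other chromosomes did. The share of members that overlapped a peak of another guide by at least 1 bp was 77.8% of 54 for sgRNA1, where 83.3% of all peaks did, 97.2% of 36 for sgRNA2 (92.2% of all), 80% of 30 for sgRNA3 (76.8% of all), 53.5% of 525 for sgRNA4 (53.1% of all), 63.6% of 343 for sgRNA5 (65.1% of all) and 25.9% of 1365 for sgRNA6 (27.1% of all). The difference from the other chromosomes averaged 0.113 ± 3.92 points (SD, n = 6; exact permutation test, p = 0.938, adjusted p = 0.938), with 3 guides above and 3 below. This mean moved with single libraries, to 8.75 points without sgRNA3 replicate 2 and -2.04 points without sgRNA2 replicate 2 (exact permutation tests, p = 0.688 and 0.312, adjusted p = 0.773 and 0.521). In sgRNA3 replicate 1, 4 of 5 members and 9 of 36 other peaks were shared. Of sgRNA2 members, 1 overlapped no other guide, the replicate 1 peak of chromosome 18 at 37106402 to 37106808. Merged regions gave a like picture, with 364 of 1761 regions of both chromosomes found with more than 1 guide (20.7%, exact binomial 95% interval 18.8 to 22.6), against 21.4% of 41677 regions elsewhere (21.0 to 21.8).

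The members of 2 long lists overlapped each other at close to the rate seen on the other chromosomes. Of sgRNA4 members 48.8% overlapped an sgRNA6 peak, against 48.3% of sgRNA4 peaks elsewhere, and 24% overlapped an sgRNA5 peak, against 23.01% elsewhere. Of sgRNA5 members 56.3% overlapped an sgRNA6 peak, against 57.1% elsewhere, and 38.2% an sgRNA4 peak, with 38.2% elsewhere too. Among the shared regions of both chromosomes, 136 were found with sgRNA4 and sgRNA6 alone, 69 with sgRNA5 and sgRNA6 alone, 65 with these 3 guides and 17 with sgRNA4 and sgRNA5 alone. Regions of a single guide numbered 1011 for sgRNA6, 244 for sgRNA4 and 125 for sgRNA5, but 10 for sgRNA1, 6 for sgRNA3 and 1 for sgRNA2, in the order of list length save for the last 2. They made up 79.3% of the regions of both chromosomes, and single-guide regions made up 78.6% of those elsewhere. Combinations of guides were not counted on the other chromosomes, so whether their counts are particular to chromosomes 4 and 18 was not tested.

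Within chromosome 4, the share of peaks overlapped by another guide was lower at the crowded short-arm end in each long list. In the first 5 Mb, 39 of 190 sgRNA6 peaks overlapped another guide (20.5%, exact binomial 95% interval 15.02 to 27.0), against 236 of 766 on the rest of the chromosome (30.8%). For sgRNA4 the counts were 33 of 72 (45.8%, 34.0 to 58.0) against 179 of 315 (56.8%, 51.2 to 62.4). For sgRNA5 they were 16 of 30 (53.3%, 34.3 to 71.7) against 146 of 215 (67.9%, 61.2 to 74.1). The intervals thus overlap for both sgRNA4 and sgRNA5. Each list is 1 library and the lists enter one another's counts, so the difference was not tested. No shares near the ends of other chromosomes were set beside these, so whether it is particular to chromosome 4 was not tested either. Near the long-arm end of chromosome 18, 2 of 43 sgRNA6 peaks overlapped another guide (4.65%), against 77 of 366 on the rest of that chromosome (21.04%).

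In the long lists the shared percent was lower on chromosome 18 than on chromosome 4. On chromosome 18, 79 of 409 sgRNA6 peaks overlapped another guide (19.3%, exact binomial 95% interval 15.6 to 23.5), and on chromosome 4 275 did of 956 (28.8%, 25.9 to 31.7). The shares were 57.1% (46.7 to 67.1) on chromosome 18 and 66.1% (59.8 to 72.0) on chromosome 4 for sgRNA5. For sgRNA4 they were 50% (41.4 to 58.6) and 54.8% (49.7 to 59.8). The intervals of the 2 chromosomes overlap for both of these guides. For sgRNA3 replicate 2, 5 of 10 chromosome 18 peaks and 15 of 15 chromosome 4 peaks were shared, where 81.8% of its peaks on other chromosomes were, and the median rank percentiles were 31.7 and 75.8. With sgRNA1 the order was the other way, at 13 of 14 on chromosome 18 and 27 of 32 on chromosome 4 in replicate 2, and 2 of 4 and 0 of 4 in replicate 1. All 6 regions found with sgRNA3 alone lay on chromosome 18, where this guide had 13 peaks, against 17 on chromosome 4. Of the 10 found with sgRNA1 alone, 8 lay on chromosome 4, where sgRNA1 had 36 peaks, against 18 on chromosome 18. Over all chromosomes, 76.8% of sgRNA3 peaks and 83.3% of sgRNA1 peaks overlapped another guide. These differences between the 2 chromosomes were not tested.

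By score, members stood in the middle of their lists. The median rank, as a percentile within the list in which 100 is the highest score, was 46.9 for sgRNA1, 49.1 for sgRNA2, 54.5 for sgRNA3, 49.0 for sgRNA4, 52.9 for sgRNA5 and 52.5 for sgRNA6, against 49.3 to 50.3 for the other chromosomes. The difference averaged 0.882 ± 3.18 points (SD, n = 6; exact permutation test, p = 0.531, adjusted p = 0.683). Among the 10% of each list with the highest scores were 50 of 343 sgRNA5 members (14.6%, exact binomial 95% interval 11.02 to 18.8), where 9.99% of all sgRNA5 peaks were. The same counts were 51 of 525 for sgRNA4 (9.71%, 7.32 to 12.6; 10% of all) and 147 of 1365 for sgRNA6 (10.8%, 9.17 to 12.5; 10% of all). Within the members, the top class near the chromosome ends held 17 of 275 sgRNA6 peaks (6.18%, 3.64 to 9.71). It held 6 of 99 sgRNA4 peaks (6.06%, 2.26 to 12.7) and 3 of 39 sgRNA5 peaks (7.69%, 1.62 to 20.9) there. In the interior the shares were 11.9%, 10.6% and 15.5%, and those of sgRNA4 and sgRNA5 lie within the intervals near the ends. These shares near the ends were not tested, nor set beside those near the ends of other chromosomes.

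Median width was lower on chromosomes 4 and 18 than elsewhere with each guide. Median widths were 685.5 bp on chromosomes 4 and 18 against 704.5 bp elsewhere for sgRNA1, 777.5 against 795 bp for sgRNA2, 624.5 against 663 bp for sgRNA3, 683 against 753 bp for sgRNA4, 606 against 629 bp for sgRNA5 and 633 against 671 bp for sgRNA6. The mean log2 ratio was -0.07 ± 0.0402 (SD, n = 6; exact permutation test, p = 0.0312, the smallest possible, adjusted p = 0.141), a mean ratio of 0.951. With replicates pooled the direction was shared by 6 of 6 guides, but the difference did not pass the correction. As for chromosome 4 density, passing was close to out of reach with 6 guides. Taken alone, sgRNA1 replicate 1 and sgRNA3 replicate 1 went the other way, with medians of 478 and 595 bp on chromosomes 4 and 18 against 462 and 512.5 bp elsewhere. On chromosome 18 by itself the median exceeded that of the other chromosomes in sgRNA1 replicate 2 (861.5 against 719.5 bp) and sgRNA2 replicate 2 (1120 against 828 bp). It did so in sgRNA3 replicate 1 too (686 against 512.5 bp, from 3 peaks), and was lower in the other lists. The mean log2 ratio was -0.17 without sgRNA2 replicate 2 and -0.02 without sgRNA3 replicate 2 (exact permutation tests, p = 0.0312 and 0.688, adjusted p = 0.156 and 0.773). Peaks of 2000 bp or more numbered 8 of 525 for sgRNA4 (1.52%; 1.22% of all), 2 of 343 for sgRNA5 (0.583%; 0.419% of all) and 2 of 1365 for sgRNA6 (0.147%; 0.901% of all). All but 2 sgRNA4 peaks of these were on chromosome 18.

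**Figure D5:**
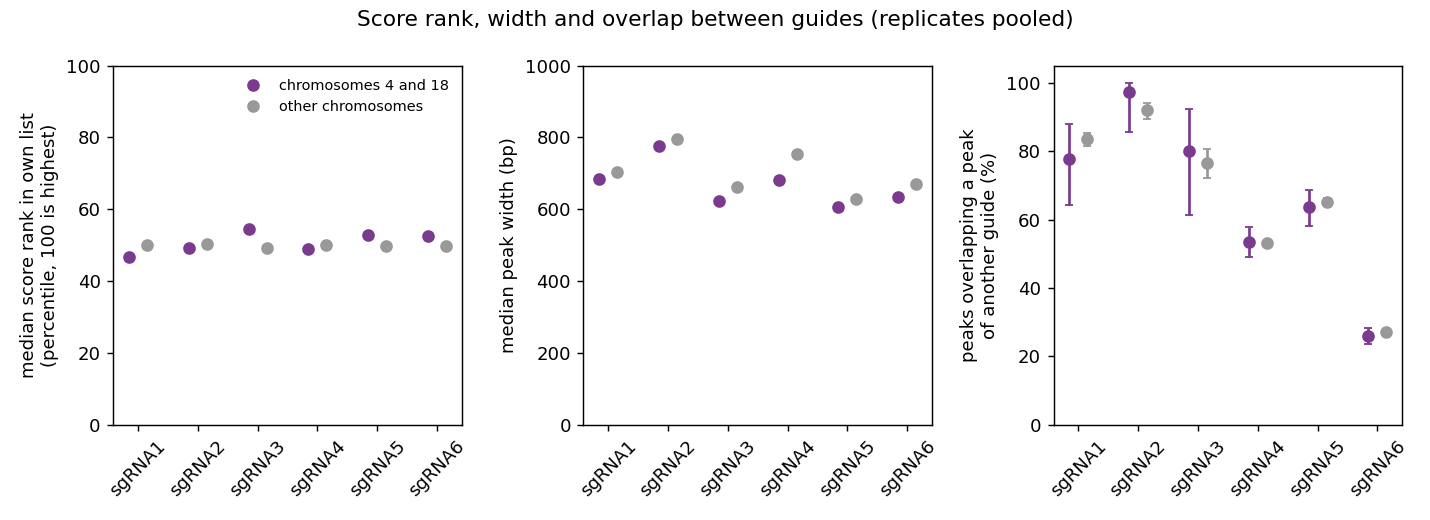
Median score rank (percentile in the own list), median width (bp) and percent of peaks overlapping a peak of another guide, for peaks on chromosomes 4 and 18 (left points) and on the other chromosomes (right points), by guide with replicates pooled; bars on the percents are exact binomial 95% intervals of counting error. Ranks lie near 50 in both groups, widths are lower on chromosomes 4 and 18 with all 6 guides, and the shared percents are close to each other within each guide.

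Single members ranked high in some lists. The highest chromosome 4 peak with sgRNA6, at 699233 to 700925, was listed at a score of 3100, a value that 5 peaks of all lists share. It ranked 4 of 33611, tied with the other peaks of that score, and overlapped no peak of another guide. With sgRNA4 the highest chromosome 4 peak, at 187125203 to 187125833, had a score of 906 (rank 26 of 13660), and with sgRNA5 that at 2947364 to 2948255 had 689 (rank 6 of 8346). Neither overlapped a peak of another guide. These 3 peaks all lay within 5 Mb of an end of chromosome 4, 2 at the short-arm end and the sgRNA4 peak at the long-arm end.

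On chromosome 18 the highest peak with sgRNA6, at 47807646 to 47808682 (score 1591, rank 45 of 33611), overlapped an sgRNA4 peak of score 87.2 and rank 5185 and an sgRNA1 replicate 2 peak of score 56.4 and rank 876 of 1278. The highest with sgRNA5, at 19773082 to 19773930 (445, rank 15 of 8346), overlapped an sgRNA6 peak of score 112 and rank 12654 and an sgRNA3 replicate 2 peak of score 60.4. The highest with sgRNA4, at 9866173 to 9867127 (466, rank 102 of 13660), overlapped none. The overlapping peaks of other guides stood between percentiles 31.5 and 62.4 of their own lists. The highest chromosome 4 peak of sgRNA2 replicate 2, at 83955990 to 83956653 (86.5, rank 53 of 570), overlapped peaks of 4 other guides, and sgRNA2 replicate 1 had no chromosome 4 peak at all (0 of 58 peaks in that list).

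Among the peaks of chromosomes 4 and 18, the widest of 5 of the guides lay on chromosome 18. It was at 33765835 to 33768423 for sgRNA4 (2589 bp), at 28620974 to 28623263 for sgRNA5 (2290 bp), at 32556495 to 32558660 for sgRNA6 (2166 bp) and at 32556674 to 32558676 for sgRNA1 (2003 bp). The widest sgRNA2 member was that at 34408169 to 34409907 (1739 bp). All 5 lay in the same 7 Mb stretch of chromosome 18, which was chosen after the values were seen. The sgRNA6 and sgRNA1 peaks overlap each other, so these are not 5 separate places. For sgRNA3 the widest member lay on chromosome 4 at 128801704 to 128802933 (1230 bp), where an sgRNA6 peak ranked 472 of 33611 (score 609). Each guide had wider peaks on other chromosomes.

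Few members were found in both replicates of a guide. For sgRNA1, 2 of 8 replicate 1 members overlapped a replicate 2 peak (25%, exact binomial 95% interval 3.19 to 65.1; 36.5% of all replicate 1 peaks), for sgRNA2 1 of 3 (33.3%, 0.840 to 90.6; 27.6% of all) and for sgRNA3 2 of 5 (40%, 5.27 to 85.3; 41.5% of all). The counts are too small to tell members from other peaks.

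The 2 sgRNA1 regions in both replicates were found with no other guide. On chromosome 4 the peak at 1139088 to 1139724 scored 68.8 in replicate 1 (rank 18 of 96) and 148 in replicate 2 (rank 33 of 1278), where it was the highest of the chromosome, as it was in replicate 1. On chromosome 18 the peak at 19971797 to 19972279 scored 151 in replicate 1 (rank 8 of 96) and 94.9 in replicate 2 (rank 145 of 1278). Both sgRNA3 regions were on chromosome 4 and were overlapped by peaks of other guides. The peak at 1750175 to 1750575 ranked 4 in both replicates (score 165 in the list of 41 peaks and 202 in that of 382) and overlapped sgRNA4 and sgRNA5 peaks ranked 8769 of 13660 and 8202 of 8346 in their lists. The peak at 7365012 to 7365606 ranked 24 of 41 in replicate 1 (62.1) and 19 of 382 in replicate 2 (111), and overlapped an sgRNA4 peak of rank 4178. The sgRNA2 region, on chromosome 18 at 47013739 to 47013960, had scores of 58.4 and 59.3 and also held peaks of sgRNA4, sgRNA5 and sgRNA6. Of the 5 regions, 3 lay within the first 10 Mb of chromosome 4, a stretch chosen after the values were seen. It also held 2 of the 4 chromosome 4 peaks of sgRNA1 replicate 1 and 2 of the 2 of sgRNA3 replicate 1. These counts are too small to compare.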

How the data were processed

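Per the submitters' processing notes, reads were handled with Bowtie, Bowtie2 and MACS on build hg19; versions, settings and any control library are not given in the sources used. Each deposited list gives chromosome, start, end and the authors' score per peak of 1 library, with chromatin sheared to about 300 bp on average per the labels. The score compares peaks within a list only. The deposited files have the form of BED, so starts were raised by 1 to count from 1. Peaks of the replicates of a guide were pooled, each keeping its rank in its own list. A peak was near an end when its middle lay within 5 Mb of it; peaks overlapped when they shared at least 1 bp. Overlaps were in 1 direction per peak, and merged regions join overlapping peaks of all lists.

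Tests took the guide as unit, by exact two-sided sign-flip permutation, adjusted by Benjamini-Hochberg over 9 results. The labels do not say whether replicates were separate cultures, so p-values measure only the spread among libraries and guides, part of which may be technical. Intervals and limits of 0 (3 counts of the total) cover counting error only. The chromosomes, measures and named regions were chosen with earlier results of these data known. Named were the highest peak per list and chromosome, peaks in both replicates, the 10 most shared regions, the 5 fullest bins and 2 longest empty stretches per chromosome, and the widest peak per guide. The overlap and sign-flip code was tested on simulated data. Python 3.11.15, numpy 2.4.6, pandas 2.3.3, scipy 1.17.1 and matplotlib 3.10.9 were used.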

Additional observations from a re-analysis of the deposited data

How the results depend on the processing

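The 16 results were recomputed under alternative settings, which gave 133 alternative values in all. For the 9 tested results no alternative passed the adjusted threshold (lowest adjusted p 0.0703 over exact permutation tests), as in the settings reported. With 6 guides, passing needs most of the results adjusted together to have the smallest possible p. This outcome was thus nearly fixed in advance and is no measure of agreement between settings. Where 6 guides could be tested, direction was kept in all 12 alternatives for chromosome 4 density (log2 -1.22 to -0.92), all 12 for width (-0.17 to -0.02) and all 14 for chromosome 18 density (-0.98 to -0.09), whereas the excess at the ends of chromosome 18 was above 0 in 6 of 13. With 1 or more libraries left out, the excess at the ends of chromosome 4 ranged from 6.87 to 25.8 points, the log2 ratio of ends on chromosomes 4 and 18 to other ends from -0.83 to 0.48, and the range of the 3 guides' shares of peaks from 2.95 to 7.02 points (3.89 with all). All 3 upper values came without replicate 2, where no test of these results could reach 0.05. Requiring 50% overlap of both peaks left 0% of sgRNA2 replicate 1 members found in replicate 2. The fullest 10% of bins held 52.2% (sgRNA4), 53.4% (sgRNA5) and 48.2% (sgRNA6) of members with bins of 0.5 Mb, and 39.4% for sgRNA4 with bins of 2 Mb, by construction of the bins. With the replicate number as a block, the exact permutation p among sgRNA1, sgRNA2 and sgRNA3 was 0.5, against 0.467 without it. The smallest exact permutation p possible was 0.167 with the block and 0.0667 without it, so neither could reach 0.05. Replicates of the same number deviated together in peaks per chromosome (correlations of 0.324 to 0.439 over 23 chromosomes). Depth is unknown, so a peak missing from a short list does not show that the site was free.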

Other observations

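Close to the short-arm end of chromosome 18, the regions at 107885 to 108821 and at 110204 to 110904 held peaks in replicate 1 of sgRNA1 and replicate 1 of sgRNA3 and in no other list. They were the only regions of both chromosomes found in replicate 1 libraries of more than 1 guide and nowhere else. In sgRNA3 replicate 1 the peaks scored 66.0 and 66.8 (ranks 20 and 19 of 41), and in sgRNA1 replicate 1 51.9 and 55.1 (ranks 75 and 49 of 96). These 2 regions make up all peaks of both libraries near the ends of chromosome 18, so the share of replicate 1 members near an end rests in part on them. None of the 33611 sgRNA6 peaks overlapped them.

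Of the 8 replicate 1 members of sgRNA1, the peak on chromosome 4 at 191032109 to 191033120 (score 52.7, rank 68 of 96) is the last peak of any list on chromosome 4 and sets its end as used here.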
